A study of Mus musculus with 8 samples.

Results

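B cell and immunoglobulin genes were followed through 10 probes of 5 genes, out of 41174 probes on the array that were not controls: Ighm with 4 probes, Jchain with 2, Cd79a with 1, Cd79b with 1 and Ms4a1 with 2. A probe was a member when the array's annotation gave it the Entrez gene of one of these 5 symbols, under the current name or an older one. In the GRCm38.p6 gene table Ighm lies on chromosome 12, Jchain on 5, Cd79a on 7, Cd79b on 11 and Ms4a1 on 19. Of the 10 probes, 7 passed the filter on dim probes and were tested, 3 of Ighm, both of Jchain, 1 of Cd79b and 1 of Ms4a1. The only probe of Cd79a did not pass, so that gene is described but not tested.

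B cells recognise antigen through a membrane antibody whose mu heavy chain is encoded by Ighm and which signals through a pair of smaller chains encoded by Cd79a and Cd79b. Ms4a1 encodes CD20, a surface protein of mature B cells. When a B cell becomes a plasma cell it secretes antibody, and the J chain encoded by Jchain joins the units of secreted IgM and of dimeric IgA. Visceral fat of mice holds B cells in its stromal fraction and in small lymphoid clusters, which draw B cells with chemokines such as Cxcl13.

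The samples were epididymal RNA of CFT Swiss albino mice aged 5 weeks, which had been injected intraperitoneally for 8 days with Nt8U, with the N-terminal peptide, with obestatin or, as controls, with saline. Obestatin is a peptide hormone cut from the ghrelin precursor, the N-terminal peptide is a fragment of it and Nt8U is an analog of that fragment, per the labels. The labels disagree on the dose of each peptide (80 nmol/kg or 80 ng/kg) and on the number of mice in a group (3 or 6), and they call the tissue both fat pad and epididymal tissue. Each of the 4 groups had 2 samples, replicate 1 in Cy3 and replicate 2 in Cy5, and both samples of a group were hybridised to 1 array of 1 slide, so that array and group cannot be told apart. The labels do not say whether the samples of a group were separate mice or pools, so the p-values below reflect no more than the spread among these samples, which may be technical.

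The samples differed in tissue content beyond their groups. All 13 adipocyte markers measured were well above background in every sample. The median log2 intensity of 20 testis germ cell markers was 13.96, 15.07 and 14.95 in replicate 2 of the Nt8U, N-terminal peptide and saline groups, against 8.73 to 11.38 in the other 5 samples. The median of 14 epididymis markers was 16.40 and 10.51 in the saline samples, against 6.34 to 9.03 in the 6 peptide samples. Their summed intensity gave another order, 908140 and 31401 with saline and 319019 and 19165 with the N-terminal peptide. It was 62077 and 107669 with obestatin and 1161 and 7219 with Nt8U. Of the 14 epididymis probes, 8 were saturated in saline replicate 1, 1 in N-terminal peptide replicate 1 and 2 in obestatin replicate 2. Of the 20 germ cell probes, 6, 10 and 6 were saturated in replicate 2 of the Nt8U, N-terminal peptide and saline groups. These medians and sums are therefore limited by the scanner's ceiling. No member probe was saturated. The part of either tissue in the results below was not tested. The 3 samples high in germ cell markers by median were all in Cy5. Differences within Cy3, which leave them out, are given beside the results they bear on. Cy3 was not free of these tissues. It holds saline replicate 1, the sample with the highest epididymis median, and N-terminal peptide replicate 1, the next highest by epididymis sum. It also holds obestatin replicate 1, whose summed germ cell intensity was 371735. That sum was 385799 in Nt8U replicate 2 and 20367 to 32457 in the other Cy3 samples.

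RefSeq promoter sequence was at hand for 2 member genes only, and both are shown. They are Jchain, whose probes separated obestatin from the other groups, and Cd79a, whose probe was not well above background in any sample. Each sequence runs 5′ to 3′ from 250 bases before to 50 bases after the annotated start of the gene in GRCm38.p6, Jchain on the minus strand at chr5:88527848-88528147 and Cd79a on the plus strand at chr7:24897247-24897546, and capitals mark the E-box CAGGTG (or CACCTG, its complement), the kind of site bound by E proteins of the B lineage.
Jchain: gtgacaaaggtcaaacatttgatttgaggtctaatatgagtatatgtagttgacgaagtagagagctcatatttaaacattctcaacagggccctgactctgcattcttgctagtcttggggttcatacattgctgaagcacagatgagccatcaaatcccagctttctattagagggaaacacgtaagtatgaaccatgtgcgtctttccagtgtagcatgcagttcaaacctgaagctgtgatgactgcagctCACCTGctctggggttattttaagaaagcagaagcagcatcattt
Cd79a: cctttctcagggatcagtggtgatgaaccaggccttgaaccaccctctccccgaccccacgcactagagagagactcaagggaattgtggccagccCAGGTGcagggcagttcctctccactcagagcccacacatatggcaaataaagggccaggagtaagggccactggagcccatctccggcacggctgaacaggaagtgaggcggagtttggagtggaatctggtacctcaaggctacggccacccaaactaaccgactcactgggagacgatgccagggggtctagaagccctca
Searched on both strands, the E-box lay once in each window, starting at base 6 of the Jchain transcript and at base -154 of Cd79a. It was present in 20.2% of 32851 mouse promoters of this length. The octamer ATGCAAAT (1.74% of promoters) and the EBF1-type letters CCCNNGGG (13.7%) were in neither window, and none of the 3 motifs overlap here. Matches are a description of letters in these windows.

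The Ighm probe A_52_P358360 was well above background in all 8 samples. Its normalized log2 intensity was 13.04 and 11.58 in the Nt8U samples, 9.30 and 7.31 in the N-terminal peptide samples, 11.62 and 10.24 in the obestatin samples, and 10.57 and 8.58 in the saline samples, replicate 1 first. The raw median signals behind these values were 5814 and 5387 for Nt8U, 488 and 211 for the N-terminal peptide, 1889 and 1676 for obestatin, and 1286 and 375 for saline. Within each dye the order was therefore Nt8U, obestatin, saline, N-terminal peptide, from high to low. Across dyes, neighbours in that order overlapped, and groups further apart in it did not.

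Probe A_52_P571419 of Ighm read 12.10 and 10.43 with Nt8U, 7.74 and 6.55 with the N-terminal peptide, 9.73 and 10.33 with obestatin, and 9.34 and 7.61 with saline. Probe A_51_P485421 of Ighm read 10.48 and 8.78 with Nt8U, 6.81 and 6.05 with the N-terminal peptide, 8.89 and 8.31 with obestatin, and 8.14 and 6.62 with saline. Both probes kept the same order of groups within each dye as A_52_P358360. In 11 of the 12 pairs of samples over the 3 probes replicate 1 was higher than replicate 2, the exception being obestatin at A_52_P571419. The fourth Ighm probe, A_51_P209030, was not well above background in any of the 8 samples and stayed between 5.90 and 6.09.

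Jchain had another order. Probe A_51_P150710 read 7.27 and 7.21 in the Nt8U samples, 6.61 and 6.97 in the N-terminal peptide samples, 9.22 and 8.74 in the obestatin samples, and 7.87 and 7.09 in the saline samples. Both obestatin samples lay above the other 6 samples. Nt8U and saline overlapped, and both lay above the N-terminal peptide. The second Jchain probe, A_51_P150705, gave 6.70 and 6.72 with Nt8U, 6.20 and 6.56 with the N-terminal peptide, 8.15 and 7.83 with obestatin, and 7.22 and 6.55 with saline, again with obestatin above all others.

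Cd79b, the beta signalling chain of the receptor, read 7.85 and 7.05 with Nt8U, 6.76 and 5.91 with the N-terminal peptide, 8.14 and 7.53 with obestatin, and 6.96 and 6.50 with saline. Obestatin and Nt8U overlapped and both lay above saline, while saline and the N-terminal peptide overlapped. Replicate 2 of the N-terminal peptide was not well above background.

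Ms4a1 was dim. Its probe A_52_P483336 read 6.79 and 6.35 with Nt8U, 6.02 and 6.20 with the N-terminal peptide, 6.61 and 6.30 with obestatin, and 5.93 and 6.32 with saline, and it was well above background in 6 of 8 samples. The other Ms4a1 probe was well above background in 3 samples and ranged from 6.05 to 6.32. The Cd79a probe stayed between 6.04 and 6.28 and was not well above background in any sample. Defining markers of B cells were thus split on these arrays, with Ighm measured in all 8 samples and Cd79a in none.

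**Figure D1:**
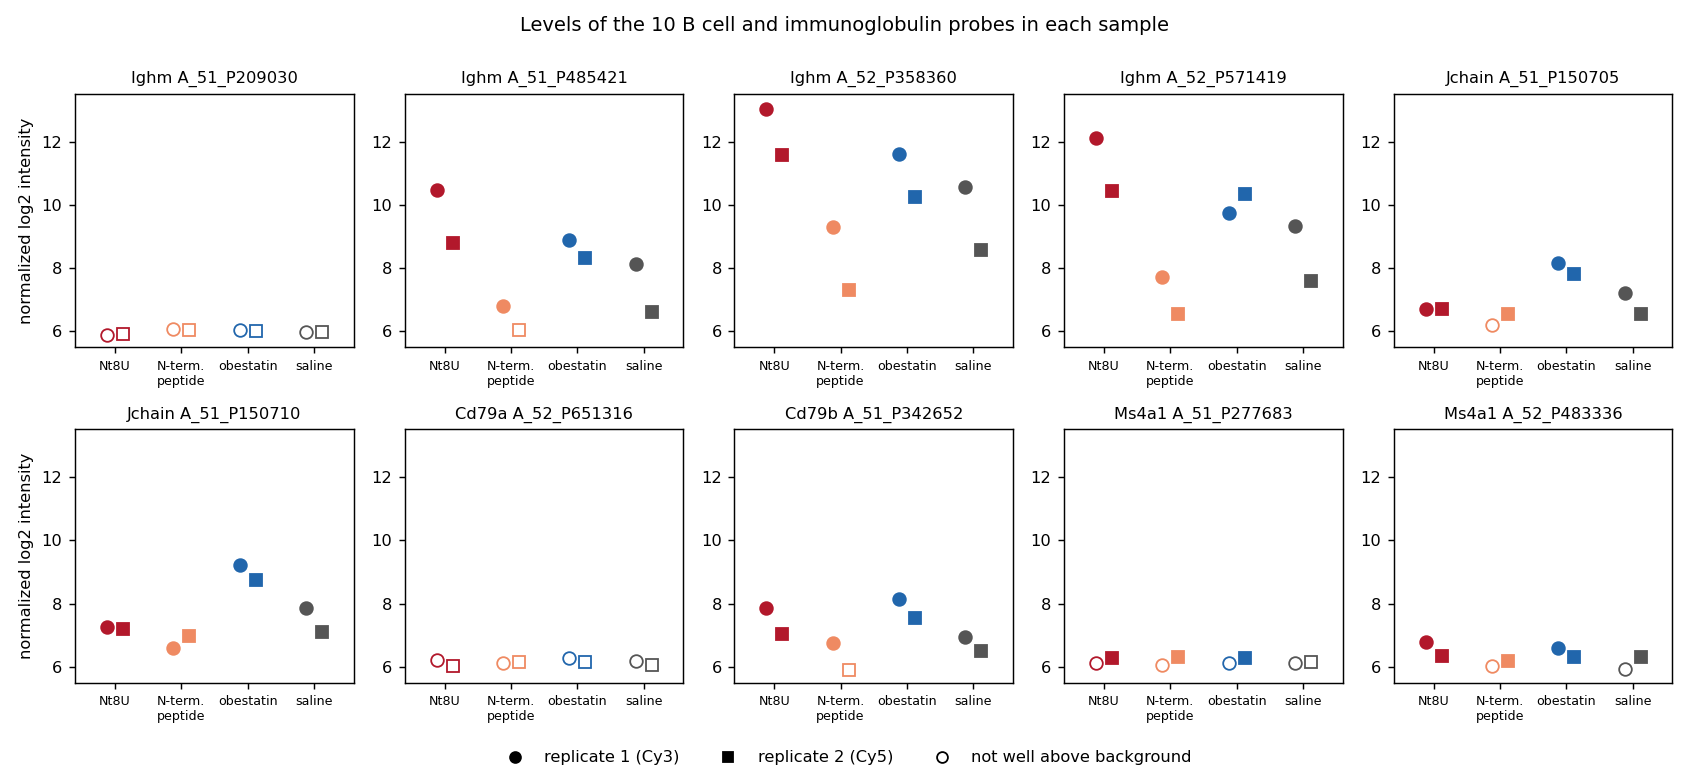
Normalized log2 intensity (vertical axis) of the 10 probes in the 8 samples, by group, with dots for replicate 1 (Cy3), squares for replicate 2 (Cy5) and open symbols where the spot was not well above background. Ighm A_52_P358360 reaches 13.04 in Nt8U and 7.31 in the N-terminal peptide group, Jchain A_51_P150710 is highest in obestatin at 9.22 and 8.74, and Cd79a stays between 6.04 and 6.28.

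Nt8U against saline asked what the analog does against the vehicle. Ighm was higher with Nt8U at all 3 tested probes, by 2.73 on the log2 scale at A_52_P358360 (SE 0.29, 95% interval 1.97 to 3.50, 6.66-fold), by 2.79 at A_52_P571419 and by 2.25 at A_51_P485421, and both Nt8U samples lay above both saline samples at each. None of these passed limma's moderated test after Benjamini-Hochberg adjustment over 28166 probes (adjusted p = 0.447, 0.453 and 0.447), and neither did any other probe on the array (0%), while 2247 had an unadjusted p under 0.05. The unadjusted limma p at A_52_P358360 was 0.000325, and the difference ranked 62 from the top among 28166 probes. Within Cy3 the differences were 2.47, 2.76 and 2.34. Cy3 holds none of the 3 samples high in germ cell markers, but its saline sample was the highest in epididymis markers.

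Jchain differed from saline by -0.24 with Nt8U at A_51_P150710 (SE 0.36, 95% interval -1.18 to 0.70, limma adjusted p = 0.984), and its sign turned to 0.12 without saline replicate 1. Cd79b was 0.72 higher with Nt8U (SE 0.24, limma adjusted p = 0.578) and Ms4a1 0.45 higher (SE 0.32, limma adjusted p = 0.891). Of the 7 member probes, 5 had both Nt8U samples above both saline samples, a pattern that 14.3% of all tested probes showed, and 4 had an unadjusted p under 0.05 in that direction, as did 6.54% of all. The 5 include Ms4a1, whose probe passed the filter only through the Nt8U and obestatin samples. Of the untested member probes, Ighm A_51_P209030 was lower with Nt8U, and Cd79a and the other Ms4a1 probe overlapped. The members' median difference was 0.72, against -0.07 over all probes. The 7 probes stand for 4 genes and share samples, and 3 of them are Ighm.

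The N-terminal peptide against saline asked the same of the fragment, and Ighm was lower with it: the difference was -1.27 at A_52_P358360 (SE 0.29, 95% interval -2.03 to -0.50, limma adjusted p = 1), with -1.27 within each dye. The other Ighm probes differed by -1.33 and -0.95. The N-terminal peptide and saline samples overlapped at all 3 Ighm probes, with replicate 1 of the peptide above replicate 2 of saline at each. Jchain differed by -0.69 at A_51_P150710 (SE 0.36, limma adjusted p = 1), Cd79b by -0.39 (SE 0.24) and Ms4a1 by -0.02 (SE 0.32). Of the 7 member probes, 1 of Jchain had both peptide samples below both saline samples, where 5.18% of all probes did, and 1 of Ighm had an unadjusted p under 0.05 in that direction, where 0.685% of all did. No probe on the array (0%) passed limma's adjusted test in this comparison either, and 237 had an unadjusted p under 0.05. The members' median was -0.69, against 0.02 over all probes. Without N-terminal peptide replicate 2 the Jchain difference was -1.09, and without N-terminal peptide replicate 1 it was -0.29; it was -0.33 without saline replicate 1 and -1.05 without saline replicate 2.

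Obestatin against saline gave higher Jchain, by 1.50 at A_51_P150710 (SE 0.36, 95% interval 0.56 to 2.44, 2.83-fold, limma adjusted p = 0.519) and by 1.10 at A_51_P150705. Cd79b was 1.10 higher (SE 0.24, 95% interval 0.47 to 1.74, limma adjusted p = 0.515). Ighm was higher by 1.36 at A_52_P358360 (SE 0.29, limma adjusted p = 0.515), by 1.56 at A_52_P571419 (SE 0.66) and by 1.22 at A_51_P485421 (SE 0.38). Ms4a1 differed by 0.33 (SE 0.32). Of the 7 member probes, 5 had both obestatin samples above both saline samples, beside 28% of all probes, and 5 had an unadjusted p under 0.05, beside 6.93% of all. No probe passed limma's adjusted test (0%), and 2370 had an unadjusted p under 0.05. The members' median was 1.22, against 0.05 over all probes.

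Within Cy3, without the 3 samples high in germ cell markers, Ighm differed by 1.05, 0.39 and 0.76 at A_52_P358360, A_52_P571419 and A_51_P485421. Jchain A_51_P150710 differed by 1.35 and Cd79b by 1.18. The obestatin sample in Cy3 had a high germ cell sum and the saline sample the highest epididymis markers. Within Cy5 the Ighm differences were 1.66, 2.72 and 1.69. At A_52_P571419 the obestatin samples also decided the value, which was 2.62 without obestatin replicate 1 (limma adjusted p = 0.0212) and 0.49 without obestatin replicate 2. In the fit without obestatin replicate 1 the lone sample left was assumed to vary like the other groups, and 3802 probes passed.

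**Figure D2:**
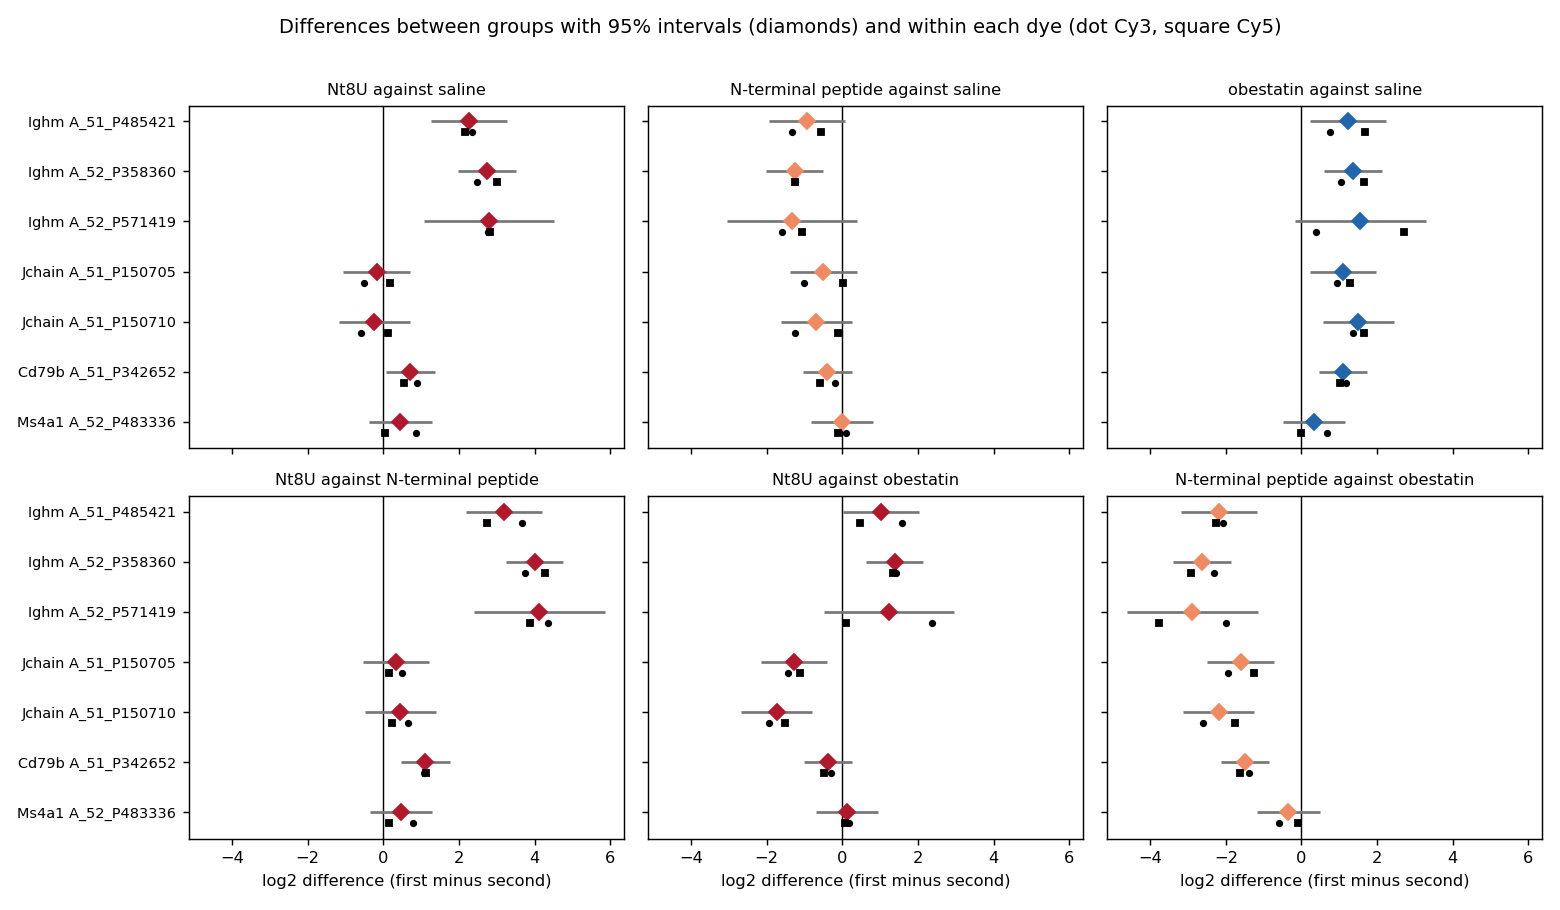
Log2 difference (horizontal axis, the first-named group minus the second) of the 7 tested probes in the 6 comparisons, with diamonds for limma's estimate, lines for its 95% interval and small symbols for the difference within Cy3 (dot) and within Cy5 (square). Ighm A_52_P358360 stands at 2.73 and Jchain A_51_P150710 at -0.24 for Nt8U against saline, and at 1.36 and 1.50 for obestatin against saline.

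The peptides were also set against each other, in 3 pairs that share samples with the comparisons above, at a dose whose unit the labels give in conflicting ways but alike for all peptides. No probe passed limma's adjusted test in any of the 3 (0% in each), and 2980, 415 and 2789 had an unadjusted p under 0.05, in the order of the pairs below. Ighm was higher with Nt8U than with the N-terminal peptide, the fragment of which it is an analog, by 4.00 at A_52_P358360 (SE 0.29, 95% interval 3.24 to 4.76, 16.0-fold, limma adjusted p = 0.186), by 4.12 at A_52_P571419 and by 3.20 at A_51_P485421. The median of all probes lay at -0.11 in this pair. Every tested member probe had both Nt8U samples above both N-terminal peptide samples, 7 of 7, beside 15.3% of all probes, and 4 had an unadjusted p under 0.05, beside 8.34% of all. Ms4a1 A_52_P483336 passed the filter only through the Nt8U and obestatin samples, so the filter favoured its place among the 7. Of the untested member probes, Ighm A_51_P209030 was lower with Nt8U, and Cd79a and the other Ms4a1 probe overlapped. Cd79b differed by 1.11 (SE 0.24, 95% interval 0.47 to 1.75). The interval for Jchain A_51_P150710 ran from -0.49 to 1.39, and that for Ms4a1 A_52_P483336 from -0.36 to 1.29.

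Nt8U against obestatin split the members. Ighm A_52_P358360 was 1.38 higher with Nt8U (SE 0.29, 95% interval 0.62 to 2.14) and Jchain A_51_P150710 was lower, with a difference of -1.74 (SE 0.36, 95% interval -2.68 to -0.80), both with a limma adjusted p of 0.988. At the other probes Ighm differed by 1.24 and 1.03 and Jchain by -1.28. Cd79b differed by -0.39 (95% interval -1.03 to 0.25) and Ms4a1 by 0.12 (95% interval -0.71 to 0.94). One member probe, Ighm A_52_P571419, had both Nt8U samples above both obestatin samples, beside 10.7% of all probes, and both Jchain probes had them below, beside 22.9% of all. At an unadjusted p under 0.05, 2 Ighm probes were higher, beside 0.344% of all, and both Jchain probes lower, beside 1.13% of all. Within Cy3 Ighm A_52_P358360 differed by 1.42 and Jchain A_51_P150710 by -1.95. Ighm A_52_P571419 differed by 0.17 without obestatin replicate 1 and by 2.30 without obestatin replicate 2.

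The N-terminal peptide against obestatin gave lower values at all 7 tested member probes. At each, both peptide samples lay below both obestatin samples, a pattern of 24.8% of all probes. The filter favoured Ms4a1 here too, since its probe passed only through the Nt8U and obestatin samples. The groups overlapped at the untested member probes. Ighm differed by -2.62 at A_52_P358360 (SE 0.29), Jchain by -2.19 at A_51_P150710 (SE 0.36) and Cd79b by -1.50 (SE 0.24), with limma adjusted p = 0.204, 0.209 and 0.209. Of the 7, 6 had an unadjusted p under 0.05 and were lower, beside 8.49% of all. The exception was Ms4a1 at -0.35 (SE 0.32). Without obestatin replicate 1, 4 member probes passed the adjusted limma test, as did 5178 probes on the array, and within Cy3 Ighm A_52_P358360 differed by -2.32.

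Ighm encodes the heavy chain of IgM and Jchain the chain that joins its units into pentamers, and their orders over the groups differed. The 3 Ighm probes correlated with each other at Pearson's r of 0.95 to 0.98 and the 2 Jchain probes at 0.998, while Ighm and Jchain correlated at 0.37 to 0.41. Cd79b correlated with Ighm at 0.83 to 0.87 and with Jchain at 0.68 and 0.71. These are descriptions over 8 samples that share arrays, dyes and tissue content. Whether the 2 genes differed in their response was not tested.

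**Figure D3:**
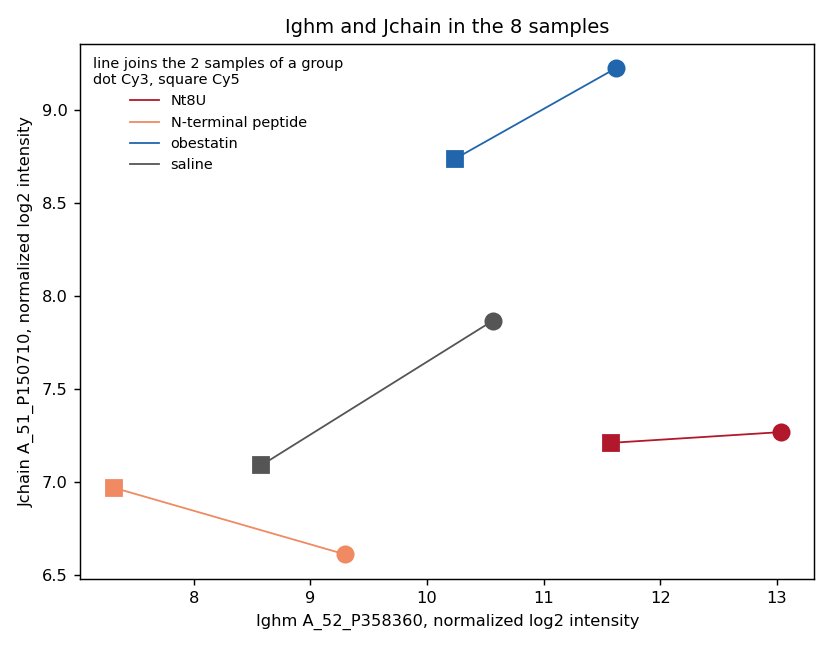
Normalized log2 intensity of Ighm A_52_P358360 (horizontal axis) and Jchain A_51_P150710 (vertical axis) in the 8 samples, coloured by group, with a line joining the 2 samples of a group. The Nt8U samples lie furthest right at 13.04 and 11.58 with Jchain at 7.27 and 7.21, and the obestatin samples lie highest at 9.22 and 8.74.

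Other antibody genes were on the array with 49 probes of 36 genes, mostly variable segments, of which 18 probes of 15 genes were tested. They were dim, and the medians of the 15 genes in the 8 samples lay between 6.23 and 6.82. Ighg3, the constant region of IgG3, read 6.83 and 6.46 with Nt8U, 6.56 and 6.78 with the N-terminal peptide, 7.40 and 7.43 with obestatin, and 6.41 and 6.73 with saline. Like Jchain it was highest in both obestatin samples, 0.85 above saline (SE 0.28, limma adjusted p = 0.557) and -0.77 in Nt8U against obestatin. Iglv1 and Igkv1-117 were also highest in both obestatin samples, at 7.51 and 7.05 (probe A_51_P483576) and at 6.52 and 6.49. The Igkv1-117 probe passed the filter only through the obestatin samples, so the filter favoured its high place in that group. Both obestatin samples lay above both saline samples for 5 of the 15 genes, beside 28% of all probes. Other genes of this list were highest in N-terminal peptide replicate 2, among them Ighv1-17 at 8.23 and Ighv5-17 at 7.87. Of the 15 genes, Ighg3 alone had an unadjusted p under 0.05 in any of the 3 comparisons with saline, and 1 of 15 is near the 6.93% of all probes that were higher with obestatin. The median of the 15 genes differed from saline by 0.11 with Nt8U, 0.07 with the N-terminal peptide and 0.17 with obestatin. Variable segments resemble one another closely, so a probe may read transcripts of more than 1 segment.

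**Figure D4:**
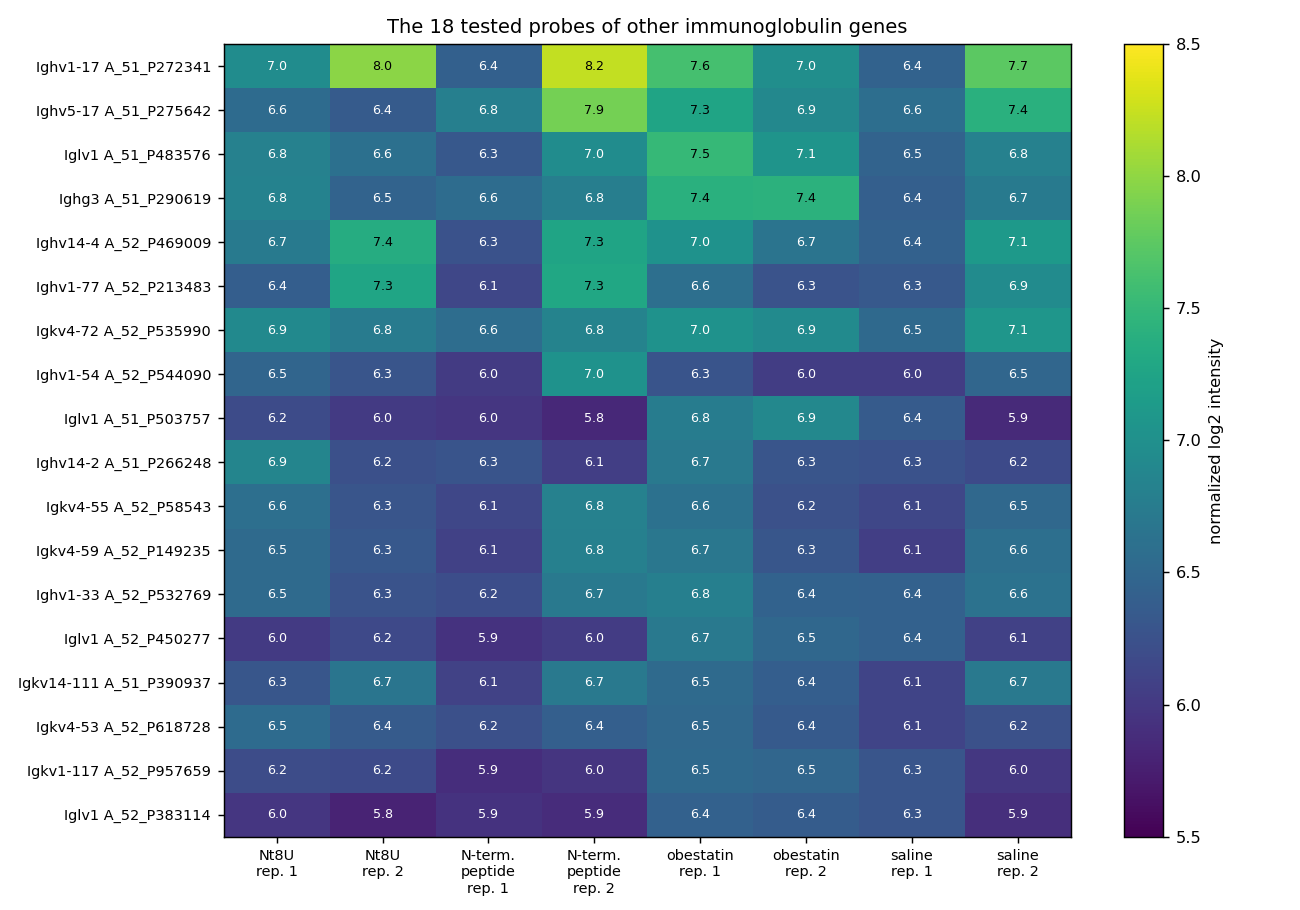
Normalized log2 intensity (colour and printed value) of the 18 tested probes of other immunoglobulin genes (rows) in the 8 samples (columns). Ighg3 is highest in the obestatin samples at 7.40 and 7.43, and Ighv1-17 is highest in N-terminal peptide replicate 2.

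The other genes of the B lineage came from 4 lists, and none of them passed limma's adjusted test against saline. Of the B cell receptor signalling genes, 18 were tested, and 1 was higher with Nt8U, 1 lower with the N-terminal peptide and 3 higher with obestatin at an unadjusted p under 0.05 against saline, beside 6.54% of all probes higher with Nt8U, 0.685% lower with the N-terminal peptide and 6.93% higher with obestatin. Their median differences from saline were 0.18, -0.05 and 0.51 in the Nt8U, N-terminal peptide and obestatin groups, beside -0.07, 0.02 and 0.05 over all probes. Fcgr2b, the inhibitory Fc receptor of B cells and also of myeloid cells, read 9.98 and 9.07 with Nt8U, 7.87 and 6.66 with the N-terminal peptide, 9.97 and 9.63 with obestatin, and 9.07 and 7.50 with saline. It differed from saline by 1.24, -1.02 and 1.51 in the Nt8U, N-terminal peptide and obestatin groups (limma adjusted p = 0.522, 1 and 0.519). Btk, the kinase downstream of the receptor, was 1.07 higher with obestatin (SE 0.35) and Pik3ap1, an adaptor for PI3 kinase, 0.73 higher (SE 0.25). Other genes of this list went against the direction of Ighm. Plcg2 differed from saline by -0.57 with Nt8U (SE 0.32, limma adjusted p = 0.809), and by -0.52 with the N-terminal peptide. Dapp1 was 0.61 higher with the N-terminal peptide (SE 0.31). Cd22, Cr2 and Blk were well above background in too few samples to be tested, and Lyn was not matched to a probe.

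Of 18 tested transcription factors and surface proteins of B cells, 2 were higher and 1 lower with Nt8U, and 3 were higher with obestatin, at an unadjusted p under 0.05 against saline, beside 6.54% of all probes higher and 1.44% lower with Nt8U and 6.93% higher with obestatin. The list's medians were 0.01, -0.01 and 0.42 in the same order of groups. Ebf1, a factor that commits cells to the B lineage and is also expressed in adipocyte precursors, read 10.94 and 8.79 with Nt8U, 7.67 and 6.58 with the N-terminal peptide, 9.79 and 9.03 with obestatin, and 7.48 and 7.36 with saline. It was 2.45 higher with Nt8U (SE 0.53, limma adjusted p = 0.447) and 1.99 higher with obestatin (limma adjusted p = 0.52). Foxo1, which acts in B cells and in many other cells, was 1.79 and 1.26 higher in the Nt8U and obestatin groups. Fcmr, the Fc receptor for IgM, was lower with Nt8U, with a difference of -1.07 (limma adjusted p = 0.589). Ikzf1, a lymphoid factor, was 1.15 higher with obestatin. Pax5, the factor that holds B cell identity, was well above background in 1 of 8 samples and was not tested.

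Of 16 tested plasma cell and secretion genes, 2 were lower with Nt8U and 1 higher with obestatin at an unadjusted p under 0.05 against saline, beside 1.44% of all probes lower with Nt8U and 6.93% higher with obestatin. The list's medians were -0.29, -0.10 and 0.24. The gene counted as higher with obestatin was Edem1, which differed by 0.91 (SE 0.33, 95% interval 0.04 to 1.78, limma adjusted p = 0.579). Edem1 was 0.80 higher with Nt8U, where the groups overlapped. Derl3, which removes misfolded proteins from the endoplasmic reticulum of secretory cells, read 6.93 and 8.80 with Nt8U, 11.17 and 9.92 with the N-terminal peptide, 8.96 and 9.82 with obestatin, and 12.48 and 10.11 with saline. The saline sample with the highest Derl3, replicate 1, was also the one with the highest epididymis markers, and their part in the value was not tested. Derl3 and Creld2, another protein of the endoplasmic reticulum, differed from saline by -3.43 and -2.35 with Nt8U (limma adjusted p = 0.556 and 0.587). Irf4, which drives plasma cell formation, was not well above background in any saline or N-terminal peptide sample and read 7.92 and 6.26 with Nt8U. It read 7.31 and 7.59 with obestatin. The estimate was 2.67-fold above saline (log2 difference 1.42, 95% interval -0.01 to 2.84, limma adjusted p = 0.59). That interval includes no difference, and the saline values behind the estimate were not well above background. The Irf4 probe passed the filter only through the Nt8U and obestatin samples, so the filter favoured higher values in those groups.

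The last list held chemokines and survival factors of B cells. Of 8 tested, 3 were higher with Nt8U, 2 lower with the N-terminal peptide and 5 higher with obestatin at an unadjusted p under 0.05, beside 6.54%, 0.685% and 6.93% of all probes. The median differences from saline were 1.06, 0.05 and 1.75, beside -0.07, 0.02 and 0.05 over all probes. Cxcl13, the chemokine that draws B cells into follicles and fat lymphoid clusters, read 9.70 and 8.56 with Nt8U, 6.85 and 5.97 with the N-terminal peptide, 10.12 and 8.65 with obestatin, and 7.63 and 7.25 with saline. It was 1.69 higher with Nt8U (SE 0.34), differed by -1.03 with the N-terminal peptide and was 1.95 higher with obestatin (limma adjusted p = 0.447, 1 and 0.515), and no peptide group overlapped with saline. Ccl19, which draws lymphocytes through the receptor Ccr7, was 1.20 and 1.97 higher in the Nt8U and obestatin groups. Ltb, a lymphotoxin that organises lymphoid tissue, was 1.54 higher with obestatin, and Ccl21a, another ligand of Ccr7, differed by -2.19 with the N-terminal peptide.

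Markers of some other cells differed from saline in the same directions as Ighm and Cd79b. The median of 14 macrophage markers differed from saline by 1.56 with Nt8U, -0.64 with the N-terminal peptide and 1.84 with obestatin, and their summed intensity was 36334 and 16440 with Nt8U, 7435 and 4855 with the N-terminal peptide, 48522 and 18796 with obestatin, and 11131 and 7292 with saline. Between 12 and 14 of these markers were well above background in each sample. The medians of 12 endothelial markers differed from saline by 1.89, -0.35 and 1.95, those of 13 adipocyte markers by 1.79, -1.38 and 1.71, and those of 8 MHC class II genes by 1.17, -0.93 and 1.32, in the Nt8U, N-terminal peptide and obestatin groups. Of the adipocyte probes, 5 were saturated in each Nt8U sample and in obestatin replicate 2, and 2 in obestatin replicate 1. The median of 4 red blood cell genes differed by 1.97, -0.97 and 1.02, and the summed intensity of the 5 such genes on the array was 155561 and 90237 with Nt8U, against 27834 and 34823 with saline, with 1 and 2 of the probes saturated in the Nt8U samples. Other immune lists differed less with Nt8U. The 12 tested T cell markers had medians of 0.17, -0.01 and 0.18, and the 8 dendritic cell markers of 0.15, -0.04 and 0.27. The 7 natural killer cell markers had medians of 0.24, -0.14 and 0.97. Natural killer probes well above background numbered 7 in each obestatin sample, but 5 and 0 in the saline samples. None passed the filter through saline, so the filter favoured values above saline in this list. The part of these cells in the member values was not tested, and in bulk tissue fewer cells of a type and less RNA per cell cannot be told apart.

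**Figure D5:**
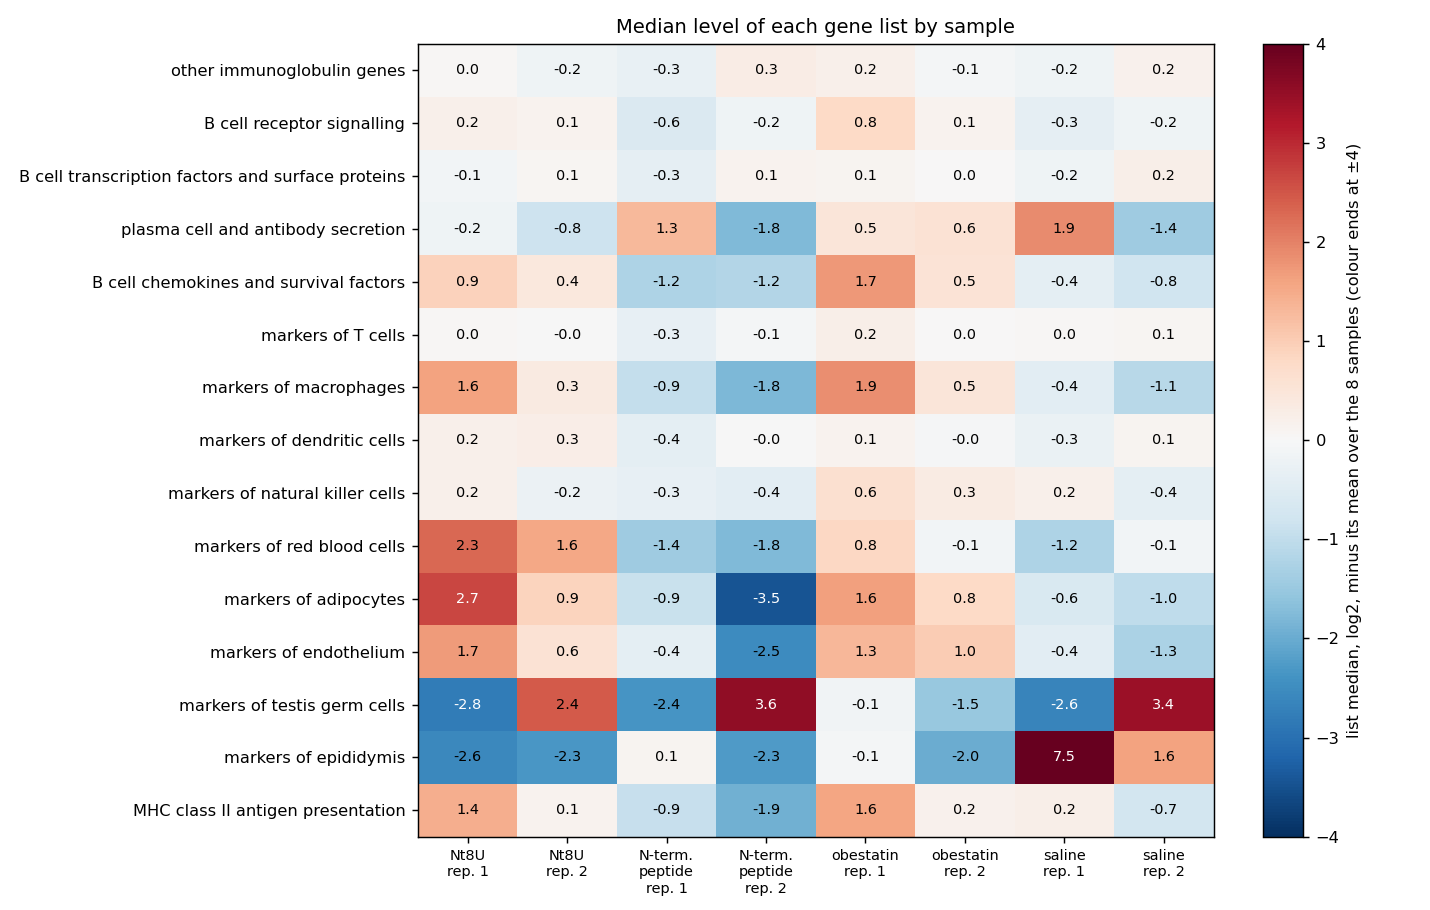
Median log2 intensity of each gene list minus its mean over the 8 samples (colour, ending at 4 in either direction, and printed value), lists in rows and samples in columns. The macrophage, endothelium and adipocyte lists are lowest in N-terminal peptide replicate 2, and the germ cell list is highest in replicate 2 of the Nt8U, N-terminal peptide and saline groups.

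The genes most like the members were sought among 12550 genes well above background in all 8 samples, by Pearson's r with the mean of the 5 scaled member genes. The closest were Cd53 (r = 0.995), Fermt3 (r = 0.992), P2ry6 (r = 0.991), Ccl5 (r = 0.99) and Lcp2 (r = 0.989), followed by Enpp3, Clec4a3, Itgax, Il10ra and Sla. Cd53 read 8.52 and 7.35 with Nt8U, 6.67 and 6.44 with the N-terminal peptide, 9.36 and 7.95 with obestatin, and 7.37 and 6.63 with saline. The mean followed Cd79b most closely of the 5 genes (r = 0.955) and Cd79a, which was at background, least (r = 0.715). Its r was 0.806 with Ighm and 0.748 with Jchain. Scaling gave every gene the same weight, so the list describes this average. Cd53 was highest with obestatin, whereas Ighm was highest with Nt8U. These correlations describe 8 samples that share arrays, dyes and tissue content.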

How the data were processed

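Epididymal RNA of 8 samples was measured on 4 Agilent arrays with 2 colours. The deposited spot intensity values, per the file headers, are median signals and backgrounds from Feature Extraction 10.5.1.1 before normalization. The authors also deposited a log2 value table, centred on each column's 75th percentile, whose columns match the other dye's channel of the same group (r = 1), and lists of changed probes with log2 differences. None of the 10 member probes is in those lists for the N-terminal peptide (109 probes). Here limma 3.58.1 in R 4.3.3 applied normexp (offset 50), loess within arrays and Aquantile between arrays. A single-channel fit of group and dye over all 8 samples (3 residual degrees of freedom) was tested by empirical Bayes, two-sided, with Benjamini-Hochberg adjustment and a threshold of 0.05. A probe was tested (28166 of 41174) where the pair of samples of any group had it well above background, with 87 left out for outlier marks. The fit of Nt8U against saline was also run on simulated data of 28166 probes, with a spread set from each probe's gaps between replicates. It called 4 of 100 probes changed 4-fold and 48 of 100 changed 16-fold, with 5 false calls. The simulated spread was set somewhat low and its noise was independent between probes, unlike shifts in tissue content. The counts therefore do not describe the fit on the real samples. Median spot signals were 71 to 225, medians of background 22 to 31. Precision is limited by how few arrays there are. Probes were named through the array's annotation by Entrez gene (GRCm38.p6 gene table): 32664 had 1 symbol, 45 several and 8465 were not listed. Named genes were all members, the smallest p in each B lineage list and the 10 genes most like the members. Members and lists were chosen with earlier results of these data known.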

Additional observations from a re-analysis of the deposited data

How the results depend on the processing

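No member probe and no probe on the array passed the adjusted limma test in any of the 6 comparisons as reported, and this held with the scanner's processed signals, quantile normalization, no loess, no dye term, no filter, a filter over all 8 samples, outlier spots kept, the deposited log2 values and one probe a gene. With the 3 samples high in germ cell markers left out and the dye term dropped together, 37 probes passed for Nt8U against saline, none of them a member. There each arm held 1 sample, and the spread came from the obestatin samples alone (1 residual degree of freedom). Leaving out one sample in turn, the number of probes passing ranged from 0 to 3802 for obestatin against saline, 0 to 1832 for Nt8U against obestatin and 0 to 5178 for the N-terminal peptide against obestatin, and the members passing from 0 to 1, 0 to 0 and 0 to 4. All of these came without obestatin replicate 1, where the lone sample is assumed to vary like the others. Signs turned for 6 differences. Leaving out one sample in turn gave ranges of -0.52 to 0.17 (Jchain A_51_P150705) and -0.60 to 0.12 (Jchain A_51_P150710) for Nt8U against saline, where the sign turned without saline replicate 1, and -0.31 to 0.28 for Ms4a1 in the N-terminal peptide against saline, where it turned without N-terminal peptide replicate 1 (0.13) and without saline replicate 2. They were -0.014 to 0.67 for Jchain A_51_P150705 in Nt8U against the N-terminal peptide, turning without N-terminal peptide replicate 1, and -0.14 to 0.38 for Ms4a1 in Nt8U against obestatin, turning without Nt8U replicate 1 and without obestatin replicate 2 (-0.063). With those 3 samples and the dye term dropped together, Ms4a1 turned to 0.090 in the N-terminal peptide against saline, which is also its difference within Cy3, and Cd79b to 0.0087 in Nt8U against obestatin, where Cy3 of Nt8U is set against both dyes of obestatin and the difference within Cy3 was -0.30. The other 700 values kept their direction and side of the threshold, with 5 passing without obestatin replicate 1. Signal over background limited Ms4a1 and Cd79a. The alternative with mean signals was not run, since these columns were not used here. The labels give no replicate numbers. Since replicate 1 was Cy3 and replicate 2 Cy5 in every group, the dye term was also the block on replicate, and no probe passed with or without it.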
